A study of Mus musculus with 25 samples.

Results

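The lysosome digests what macrophages take up, and the 50 genes described here encode its proton pump, its cathepsin proteases and its main membrane glycoproteins. They were every gene of the 24411 symbols in the count tables whose symbol starts with Atp6v or Atp6ap, is Cts followed by a single letter or digit, or is Lamp1 or Lamp2. The rule used symbols and no measured value. The 50 comprised 25 subunits and accessory proteins of the vacuolar ATPase (V-ATPase), of which 13 belong to the V1 sector, 9 to the V0 sector and 3 are accessory, together with 22 cathepsins, 2 LAMP proteins and 1 pseudogene of a V0 subunit. The study profiled mouse macrophages by strand-specific RNA sequencing after removal of ribosomal RNA, to compare classical (M1) with alternative (M2) activation. Bone marrow-derived macrophages (BMDMs) were obtained from C57BL/6 mice, and all 21 BMDM libraries shared a culture of 4 days in medium with 25 ng/ml M-CSF. They formed 7 groups of 3, which were control BMDMs cultured for 4 h, BMDMs that received IFN-γ (100 U/ml) as priming before LPS (100 ng/ml) for 1, 4, 12 or 24 h, here called IFN-γ-primed LPS, BMDMs given 10 ng/ml IL-4 for 12 h, and BMDMs given 10 ng/ml IL-13 for 12 h. The other 4 libraries came from RAW264.7, an established mouse macrophage-like line, as 2 controls cultured for 4 h and 2 samples given 100 ng/ml LPS without IFN-γ for 4 h. The 4 h control was the only BMDM control, so every BMDM comparison with control shared it. Neither the study nor the labels give the length of the IFN-γ priming, so the hours named for these groups are those of LPS. Culture time and treatment cannot be told apart at any of the 4 times, nor at 12 h of IL-4 and IL-13. No BMDM group here had IFN-γ or LPS alone, so their parts cannot be told apart either. The study calls the libraries of a group biological replicates, but neither it nor the labels say whether those of BMDMs came from separate mice, or those of RAW264.7, a single line, from cultures grown apart, so the p-values measure only the spread between these libraries, which may be technical.

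The V-ATPase is a rotary machine. Its cytosolic V1 sector hydrolyses ATP, and the rotation this drives lets the membrane-bound V0 sector carry protons into the lysosome, where the low pH activates the cathepsins and lets them cleave proteins. Several subunits exist in alternative forms encoded by separate genes, and the a and d subunits of V0 are the forms best known to differ between cell types, with a3 and d2 abundant in osteoclasts, relatives of macrophages that secrete acid onto bone. Many genes of lysosomal proteins are targets of the transcription factors TFEB, TFE3 and MITF, which bind the letters CACGTG, while STAT factors and interferon regulatory factors, which act after IFN-γ, IL-4 and IL-13, bind forms of TTCNNNGAA and of repeated GAAA.

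These letters were searched on both strands of the promoters in RefSeq (build GRCm38.p6, 250 bases before to 50 after the start), which held an entry for 38 of the 50 genes. CACGTG was found in 9 of the 38, against 8.09% of all 27025 genes with a promoter entry. The 9 were Atp6v0b, Atp6v0d1, Atp6v0e, Atp6v1a, Ctsa, Ctsd, Ctsf, Ctsl and Lamp1, and 5 of them held it within the longer TCACGTGA, found in 1.13% of all genes. With a further G before and C after it, the motif was in 0 of the 38 and in 0.37% of all genes. TTCNNNGAA was found in 2 of the 38, Ctsc and Ctsg, against 9.55% of all genes, and the GAAA repeat, which is GAAA followed by NN and GAAA, in 4, Atp6v1d, Ctso, Ctss and Lamp1, against 3.99%. Such a match describes letters in a window, and binding was not measured. The stretches below show the match, in capitals, in 4 genes of different role that hold CACGTG, in Ctss, which holds the GAAA repeat, and in Ctsc, the gene with the largest rise below, which holds TTCNNNGAA. They are written 5′ to 3′ on the strand of the gene and lie before the start that the promoter entry takes. Those of Ctsd and Atp6v1a lie inside the longer span that GENCODE gives these genes.
Ctsd, chr7:142387908-142387937, minus strand: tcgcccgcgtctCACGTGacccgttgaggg
Atp6v1a, chr16:44139357-44139416, minus strand: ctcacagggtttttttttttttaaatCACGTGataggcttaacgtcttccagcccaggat
Atp6v0b, chr4:117887335-117887394, minus strand: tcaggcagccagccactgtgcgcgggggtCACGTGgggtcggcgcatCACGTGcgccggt
Lamp1, chr8:13159074-13159133, plus strand: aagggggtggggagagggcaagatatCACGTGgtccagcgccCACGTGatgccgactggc
Ctss, chr3:95526726-95526785, plus strand: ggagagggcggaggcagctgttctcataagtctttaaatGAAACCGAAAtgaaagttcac
Ctsc, chr7:88277835-88277894, plus strand: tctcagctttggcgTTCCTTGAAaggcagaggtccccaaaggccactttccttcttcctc

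Values are the authors' whole-number counts on the gene's strand, scaled here to normalised CPM, a scale on which libraries of different depth can be compared, without Rn45s, the ribosomal precursor gene. Each library held 1502618 to 2532496 such counts, so 3 counts, taken as the floor of detection, stood for 1.18 to 2.0 CPM. Of 7 macrophage markers, all 7 had counts in every BMDM group (summed level 2679 to 7969 CPM). In RAW264.7, 6 of the 7 had counts (2076 to 4324 CPM), and Mertk was at 0. Markers of neutrophils, B cells, T and NK cells, mast cells and dendritic cells summed to at most 9.31 CPM in any library, whereas the 4 fibroblast markers summed to 50.8 to 104 CPM in the BMDM libraries and to 0 in RAW264.7. The activation markers Tnf, Il12b and Nos2 summed to 28.2 to 28.9 CPM in control BMDMs and 3477 to 14798 CPM in IFN-γ-primed LPS, and Arg1, Chil3 and Retnla to 3.26 to 5.90 CPM in control, 698 to 778 CPM with IL-4 and 1413 to 1443 CPM with IL-13. A gene was called higher or lower at a Benjamini-Hochberg adjusted p of at most 0.01 in edgeR's quasi-likelihood test over all genes tested, and "rose" and "fell" are used for called genes only. In bulk RNA, fewer cells of a type and less RNA per cell cannot be told apart.

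Of the 50 genes, 31 passed the filter on low counts in at least 1 comparison, 30 of them in the BMDM comparisons. These 30 were 8 V1, 6 V0 and 2 accessory subunits, 9 cysteine, 2 aspartic and 1 serine cathepsins, and both LAMP genes. Another 14 had 0 counts in all 25 libraries, which allows up to 3 counts in each. They included the 8 genes Cts3, Cts6, Cts7, Cts8, Ctsj, Ctsm, Ctsq and Ctsr, known in mice as placental cathepsins, the kidney-type subunits Atp6v0a4 and Atp6v1b1, the second forms Atp6v1c2 and Atp6v1e2, Atp6ap1l and the pseudogene. The neutrophil protease Ctsg, Ctsw of cytotoxic lymphocytes, Atp6v1g3 and Atp6v0c had at most 3 counts in any library. Atp6v0c, which encodes the main subunit of the proton-carrying ring, shares 465 bases at 99.8% identity with the pseudogene Atp6v0c-ps2. Its longest transcript has 2567 bases. The counting kept uniquely mapped reads, so the level of Atp6v0c is uncertain, and the part of this match in its low counts was not tested. Ctsl shares 395 bases with the gene model Gm49230 and Atp6v1g1 357 bases at 99.4% identity with Gm13453, so their levels are uncertain in the same way. Atp6ap2 and Atp6v1f also share near-identical sequence with pseudogenes. Ctsd, Ctsb, Ctsa, Lamp1 and Atp6v1h share sequence with other protein-coding gene models (671 bases with Gm49369 for Ctsd and 774 with Fdft1 for Ctsb), and how the counting treated reads there was not tested. Atp6v1g2 reached 8 counts and was tested nowhere.

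Together the 50 genes took a large part of the BMDM transcriptome, and in control BMDMs Ctsd took the largest share among them. Control BMDMs gave them 7.57 ± 0.0875% of the counts without Rn45s (SD, n = 3), of which the cathepsins took 6.56% and the V-ATPase genes 0.612%. Ctsd, which encodes the aspartic protease cathepsin D, alone took 3.20 ± 0.0766%, and Ctsb, for the cysteine protease cathepsin B, 2.12 ± 0.0307%. With IFN-γ-primed LPS the mean share of Ctsb, 1.87%, 1.44% and 1.18% at 1, 4 and 12 h, was above that of Ctsd, 1.80%, 1.20% and 0.891%. At 24 h that of Ctsd, 1.03%, was again above that of Ctsb, 0.970%. These are shares of counts, not set against length. The exons of Ctsb cover 6051 bases and those of Ctsd 2351, so this order need not hold per kilobase. In IFN-γ-primed LPS the 50 genes took 6.09 ± 0.147% after 1 h, 4.55 ± 0.232% after 4 h, 4.08 ± 0.0436% after 12 h and 3.75 ± 0.0965% after 24 h. With IL-4 it was 7.62 ± 0.106% and with IL-13 7.77 ± 0.194%. The share was 0.881% in RAW264.7 control and 0.832% after LPS. Per kilobase of exon, the highest levels in control BMDMs were those of Ctsd (12396 CPM per kb), Ctss (5997), Ctsb (3188) and Lamp1 (999.6), ahead of Ctsa (299), Atp6v0d2 (238) and Atp6v1a (221). The first 5 kept this order per kilobase of the longest transcript, but Atp6v0b (348), Atp6v1a (316), Atp6ap1 (292) and Lamp2 (258) then stood before Atp6v0d2 (255).

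With IFN-γ-primed LPS some genes of the V1 sector, the V0 sector and the cathepsins rose and others fell at all 4 times, and at each of the 4 times the largest rise was that of Ctsc and the largest fall that of Atp6v0d2. At 1 h, 10 of the 30 rose and 8 fell, where 26% of all 9568 genes tested were called, 14.7% higher and 11.3% lower. At 4 h, 10 rose and 10 fell, against 51.6% of all genes called, 26% higher and 25.6% lower. At 12 h the numbers were 11 and 10, against 47.3% (23.9% higher and 23.4% lower), and at 24 h 7 and 12, against 45.2% (23.9% higher and 21.3% lower). At 4, 12 and 24 h the share of the 30 genes called, 66.7%, 70% and 63.3%, stood beside these backgrounds, and the median log2 fold change of the 30 was 0.10, -0.15 and -0.24, beside -0.08, -0.03 and 0.02 over all genes. Past the fold cutoff of 1.5 on the log2 scale were 3, 3, 5 and 4 genes at the 4 times, against 7.12%, 22.8%, 17.3% and 14.9% of all genes. The split depended on the scaling. By library totals in place of TMM (added after seeing the data), the median log2 fold change of all genes moved to -0.21, -0.60, -0.34 and -0.20, and the genes higher and lower were 5 and 10, 4 and 18, 8 and 16, and 4 and 19. No gene called by both was called in opposite directions, but the log2 fold changes at 4 h of Ctss, Atp6v1f, Atp6ap2 and Lamp2, called higher with TMM, were then -0.12, -0.12, -0.07 and -0.08 and not called higher.

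**Figure D1:**
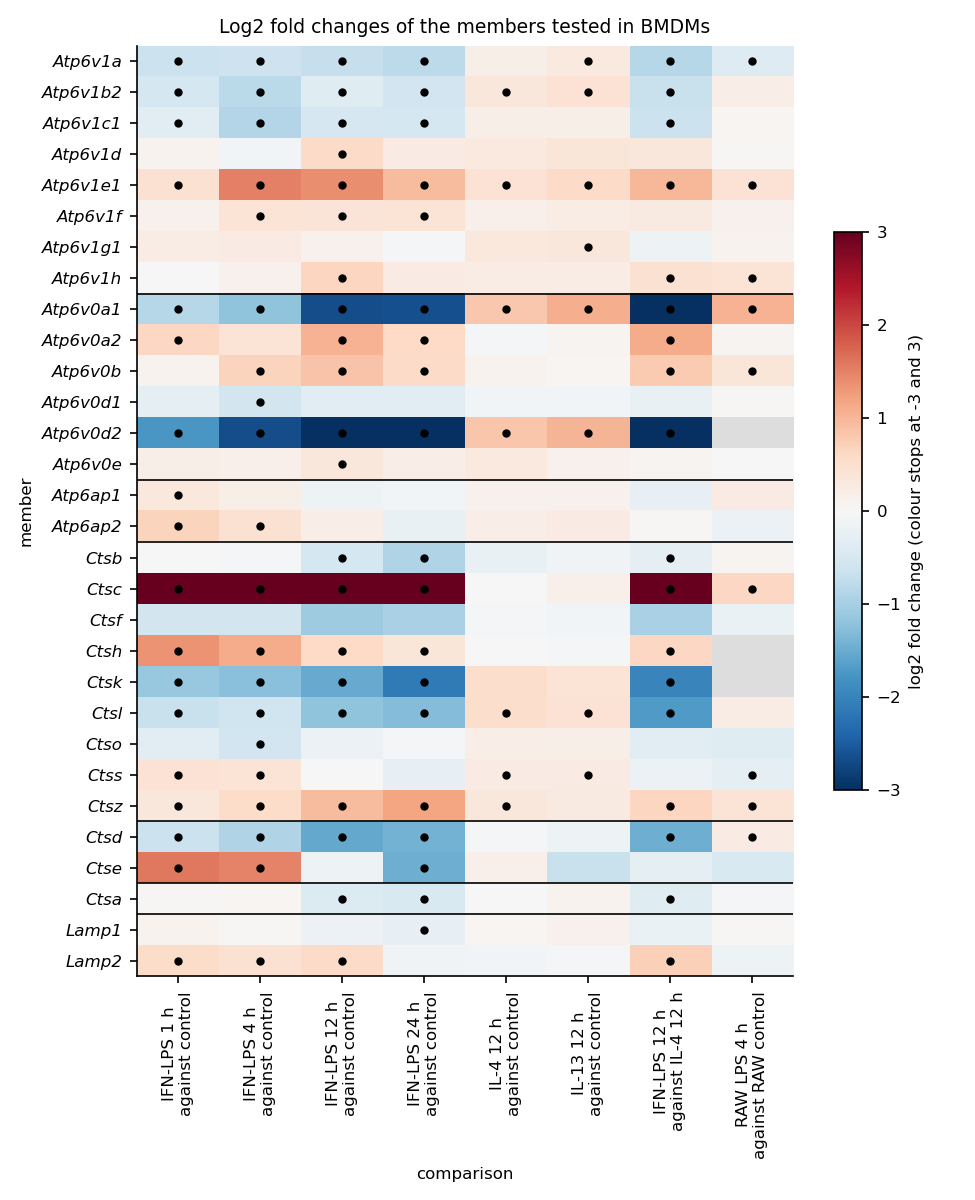
Log2 fold change of the 30 genes tested in BMDMs (rows) in 8 comparisons (columns), red for higher and blue for lower, with the colour stopping at 3 in either direction, a dot for each call and grey for genes not tested. Ctsc is the deepest red and Atp6v0d2 the deepest blue in the 4 columns of IFN-γ-primed LPS against control, and Atp6v0d2 and Atp6v0a1 are red in the columns of IL-4 and IL-13.

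In the V1 sector, the subunits that bind ATP fell while a stalk subunit rose. Atp6v1a and Atp6v1b2, for the A and B subunits of the catalytic hexamer, and Atp6v1c1, for the C subunit of the stator, fell at all 4 times, and these calls held with all 4 scalings tried (TMM, RLE, library totals and Rn45s kept). Atp6v1a stood at 1309.8, 1414 and 1288 CPM in the control libraries and at 769.9, 870.3 and 905 at 12 h, with no overlap, and its log2 fold change was -0.64, -0.63, -0.70 and -0.78 at 1, 4, 12 and 24 h. Atp6v1b2 fell by 0.54, 0.81, 0.37 and 0.57 on the log2 scale at these times, and Atp6v1c1 by 0.34, 0.87, 0.50 and 0.53. Both were lowest at 4 h. Atp6v1e1, for the E1 subunit of the peripheral stalk, moved the other way. Its levels were 219, 231 and 243 CPM in control, 302, 316 and 345 at 1 h, 611, 744 and 690.4 at 4 h, 631, 588 and 666 at 12 h and 399.8, 484 and 461 at 24 h. Every stimulated library lay above every control library. The log2 rise was 0.45 at 1 h, which was no call by library totals, 1.51 at 4 h (edgeR, SE 0.10, adjusted p = 7.09e-19), 1.40 at 12 h (SE 0.10, adjusted p = 9.45e-18) and 0.95 at 24 h (SE 0.09, adjusted p = 3.66e-12). Atp6v1h and Atp6v1d, for a regulatory subunit and a part of the rotor, rose at 12 h alone among the 4 times, by 0.65 and 0.57, and the rotor gene Atp6v1f rose by 0.41, 0.39 and 0.42 at 4, 12 and 24 h, the rises of Atp6v1d and Atp6v1f being no calls by library totals. Atp6v1g1, of the peripheral stalk, was called at no time. Summed over the sector, the V1 level was 2986 ± 116 CPM in control and 2939.8 ± 189 at 12 h, ranges that overlap. At 4 h it was 2780 ± 226 CPM, also overlapping control. At 1 h it was 2480 ± 80.9 CPM and at 24 h 2481 ± 160.5 CPM, with every library below the control libraries.

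The d subunit, which joins the rotor of V0 to that of V1, gave the largest fall. Atp6v0d2 (chr4:19876841-19922605, minus strand, here and below in the GENCODE annotation of mm10) was at 611, 628 and 700.1 CPM in the control libraries, at 202, 186 and 206 at 1 h, at 106, 116 and 95.1 at 4 h, at 66.4, 93.6 and 69.4 at 12 h and at 26.9, 38.3 and 25.3 at 24 h. The level was lower at each later time, and no library of any time overlapped those of another. It fell by 1.73 on the log2 scale at 1 h (edgeR, SE 0.11, adjusted p = 3.61e-19), by 2.66 at 4 h (SE 0.12, adjusted p = 4.67e-25), by 3.13 at 12 h (SE 0.12, adjusted p = 9.94e-28) and fell by 4.43 at 24 h (SE 0.13, adjusted p = 4.59e-32), the last a 21.6-fold difference. The ubiquitous form Atp6v0d1 was at 136, 128 and 119 CPM in control and 87.6, 79.9 and 103 at 4 h, where it fell by 0.55 (SE 0.12, adjusted p = 0.000124). At 1, 12 and 24 h its log2 differences of -0.27, -0.34 and -0.32 missed the threshold (adjusted p = 0.0583, 0.0103 and 0.0134), although the 12 h and 24 h libraries all lay below control. It was called lower by library totals at these 3 times, at 12 and 24 h also with at least 10 counts in every sample or with only the groups compared, at 12 h with a replicate block and at 24 h with RLE scaling. Per exon length, d2 thus made up 76.9 ± 2.41% of d1 and d2 in control BMDMs (SD, n = 3), 54.9 ± 1.66% after 1 h of stimulation, 43.8 ± 5.64% after 4 h, 32.5 ± 3.16% after 12 h and 16.3 ± 3.89% after 24 h. d2 was the more abundant form in every control and 1 h library, and d1 in every library from 4 h on.

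The a subunit, which holds the proton path and places the pump in a given organelle, changed form as well. Atp6v0a1 (chr11:101009452-101063719, plus strand) was at 438, 415 and 381 CPM in control, 225, 229.6 and 237 at 1 h, 212, 182 and 166 at 4 h, 62.4, 70.8 and 69.4 at 12 h and 71.4, 69.1 and 60.2 at 24 h. All stimulated libraries lay below the control libraries, and 12 h and 24 h overlapped. It fell by 0.87 on the log2 scale at 1 h (edgeR, SE 0.10, adjusted p = 1.73e-10), fell by 1.20 at 4 h (SE 0.10, adjusted p = 1.31e-14), fell by 2.65 at 12 h (SE 0.11, adjusted p = 4.96e-26) and fell by 2.63 at 24 h (SE 0.11, adjusted p = 2.41e-26). Atp6v0a2 was at 46.2, 63.5 and 58.3 CPM in control and at 87.8, 129 and 141 at 12 h, without overlap. It rose by 0.62 at 1 h (SE 0.15, adjusted p = 0.000934), 1.04 at 12 h (SE 0.15, adjusted p = 5.13e-08) and 0.59 at 24 h (SE 0.15, adjusted p = 0.000731). At 4 h the a2 groups overlapped, with a log2 difference of 0.41 (SE 0.16, adjusted p = 0.0246), which was a call when every gene with a count was tested and without 4 h replicate 3 or 12 h replicate 1. The a2 calls at 1 and 24 h were lost with library totals and without control replicate 1. Tcirg1 (chr19:3896050-3907133, minus strand), which encodes a3 and is not among the 50, was at 474, 443 and 422 CPM in control and 1011, 842 and 866 at 4 h, and rose by 0.65, 0.97, 0.79 and 0.46 at the 4 times, where the 24 h rise was not called with library totals. Per exon length, a1 was 37.3 ± 0.565% of the 3 forms in control and 5.13 ± 0.243% at 12 h, a3 was 57.7 ± 0.702% and 86.1 ± 1.42%, and a2 4.98 ± 0.949% and 8.75 ± 1.44%.

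**Figure D2:**
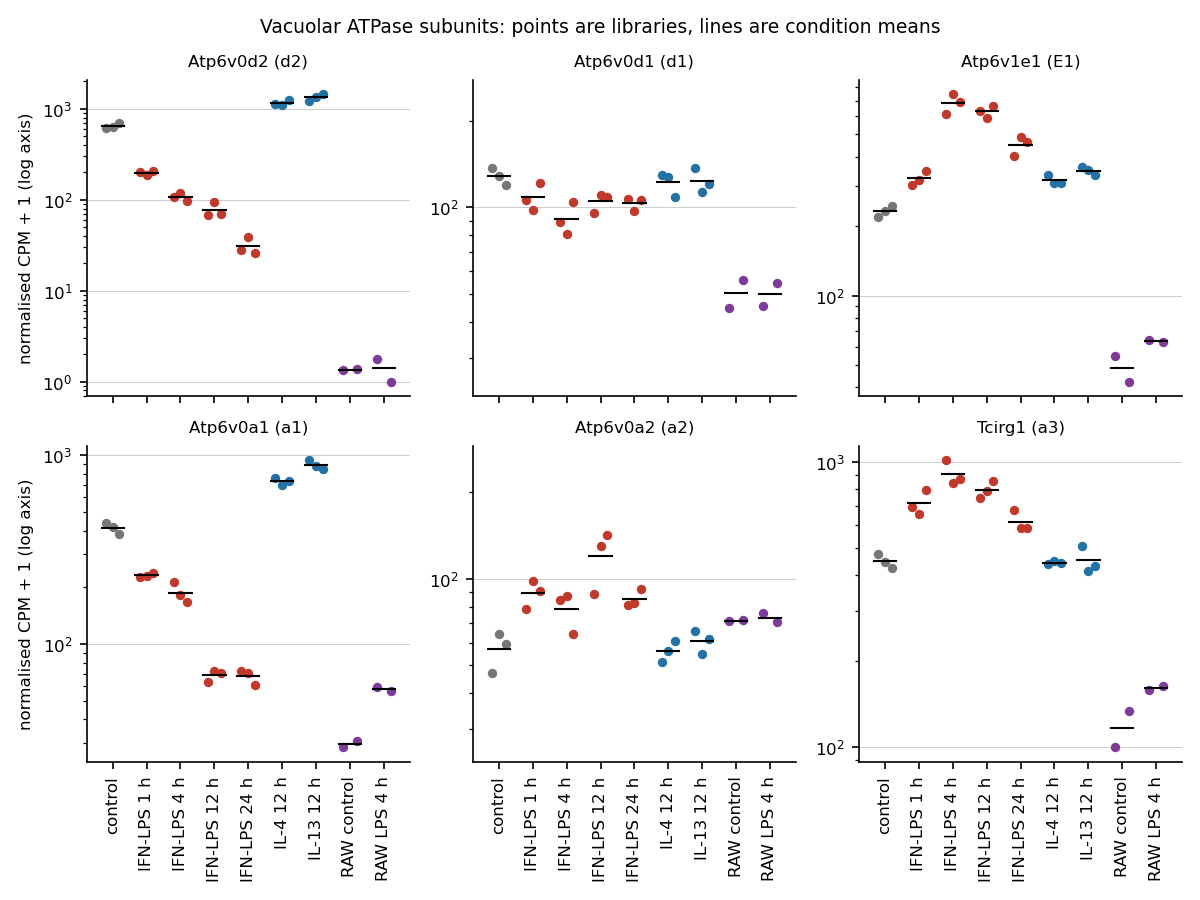
Normalised CPM plus 1 on a log axis of Atp6v0d2, Atp6v0d1, Atp6v1e1, Atp6v0a1, Atp6v0a2 and Tcirg1 in the 9 conditions, with a point per library and a line at each group mean (grey control, red IFN-γ-primed LPS, blue IL-4 and IL-13, purple RAW264.7). Atp6v0d2 stepped down from 646 CPM in control to 30.1 at 24 h and stood at 1331 with IL-13, while the points of Atp6v0d1 stayed between 79.9 and 136 CPM in all BMDM libraries.

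With TMM scaling, the other V0 subunits rose or were not called. Atp6v0b, for a ring subunit whose promoter stretch above holds CACGTG at a pair of places, was at 359.7, 325 and 360.0 CPM in control and 664, 597 and 687 at 12 h, with no overlap, and rose by 0.67, 0.85 and 0.57 at 4, 12 and 24 h, the first not by library totals. Atp6v0e, a small membrane subunit, rose by 0.33 at 12 h, a call that library totals did not give, and by library totals it was called lower at 4 h. Without Atp6v0d2 and Atp6v0a1, the summed V0 level was 713 ± 25.5 CPM in control, 788 ± 32.4 after 1 h, 954 ± 23.2 after 4 h, 1108 ± 53.7 after 12 h and 915 ± 46.9 after 24 h. With them it was 1771 ± 33.4 CPM in control and 1012 ± 43.6 at 24 h. These sums leave out Tcirg1, at 474, 443 and 422 CPM in control and 676, 585 and 586 at 24 h. They also hold almost nothing of Atp6v0c, whose level is uncertain, so they do not give the level of the whole sector. Of the accessory proteins, Atp6ap2, the prorenin receptor, stood at 171, 185 and 181 CPM in control and at 277, 316 and 286 at 1 h, where it rose by 0.68 (edgeR, SE 0.10, adjusted p = 1.7e-07). It rose by 0.46 at 4 h, and at 12 and 24 h it was not called. Atp6ap1 rose at 1 h only among the 4 times, by 0.32, and not by library totals.

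**Figure D3:**
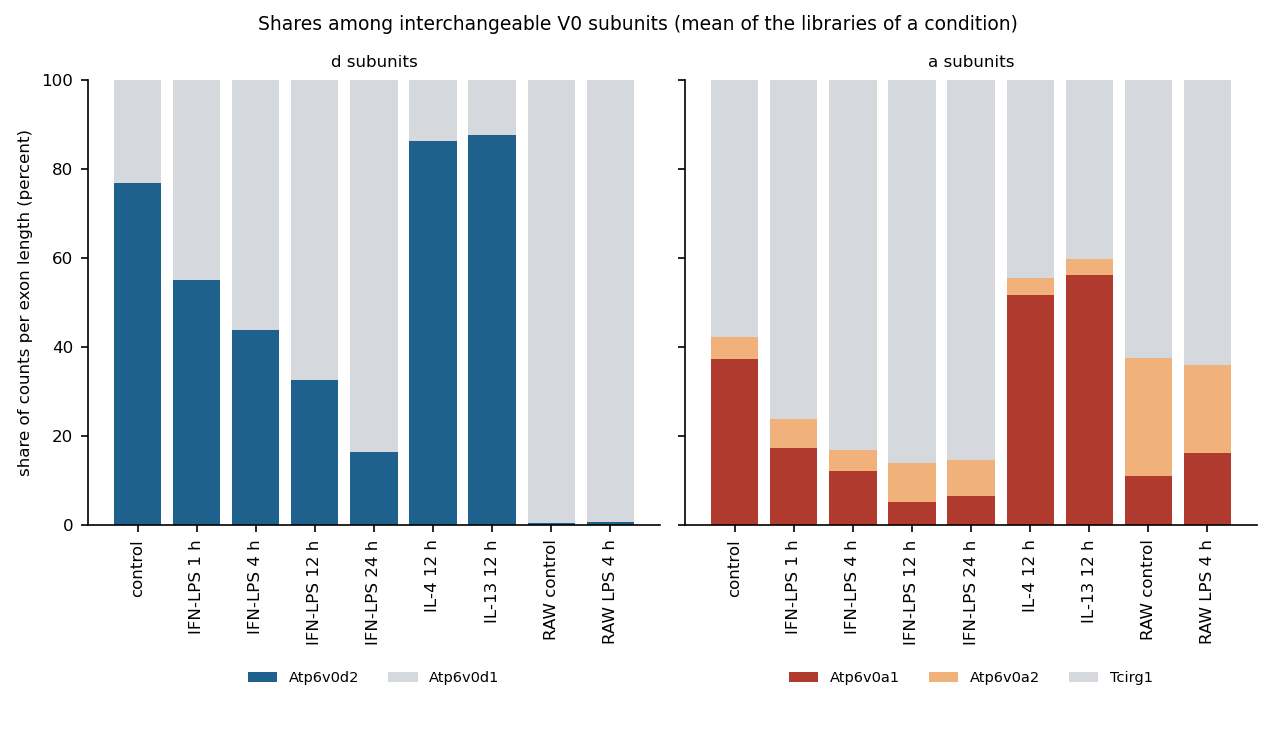
Share of each alternative subunit in the summed level per exon length (percent, stacked to 100), for d1 and d2 and for a1, a2 and a3, in the 9 conditions. The d2 share is 76.9% in control BMDMs, 16.3% after 24 h of IFN-γ-primed LPS, 87.7% with IL-13 and 0.478% in RAW264.7 control, and the a3 share is highest, 86.1%, at 12 h of IFN-γ-primed LPS.

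Among the cathepsins, 5 of 12 rose and 3 fell at 1 h, and 5 rose and 4 fell at 4 h. At 12 h 3 rose and 5 fell, and at 24 h 3 rose and 6 fell. Of all genes, 14.7%, 26%, 23.9% and 23.9% were higher and 11.3%, 25.6%, 23.4% and 21.3% lower at these times. By library totals, the 9 cysteine cathepsins gave 2 higher and 3 lower, 2 and 4, 3 and 6, and 2 and 5. The 2 aspartic ones then gave 1 and 1, 1 and 1, 0 and 1, and 0 and 2. Ctsa was then called lower at 4, 12 and 24 h. Ctsc (chr7:88278085-88310888, plus strand), for the dipeptidyl peptidase that activates granule serine proteases, gave the largest rise. Its levels were 101, 104 and 126 CPM in control, 1466, 1523 and 1428 after 1 h, 1828, 2039.7 and 1881 after 4 h, 2785, 2977 and 3516 after 12 h and 1672, 1796 and 1823 after 24 h. The stimulated libraries all lay above control, those of 12 h highest. The log2 rise was 3.71 at 1 h (edgeR, SE 0.10, adjusted p = 8.36e-33), 4.07 at 4 h (SE 0.10, adjusted p = 9.64e-35), 4.76 at 12 h (SE 0.11, adjusted p = 4.35e-37) and 4.00 at 24 h (SE 0.10, adjusted p = 2.89e-34), or 27.2-fold at 12 h. Ctsc took 0.184 ± 0.0197% of all cathepsin counts in control and 8.0% at 12 h. Ctsh, for an aminopeptidase, was at 529, 495 and 527 CPM in control and 1317, 1390.1 and 1334 at 1 h, its highest condition. It rose by 1.35 at 1 h (SE 0.09, adjusted p = 4.89e-18) and 1.12 at 4 h (SE 0.09, adjusted p = 1.54e-15), and by 0.60 and 0.37 at 12 and 24 h, the last not by library totals. Ctsz, for a carboxypeptidase, was at 297, 269.8 and 267 CPM in control and at 754, 579.5 and 555 at 24 h, and rose by 0.35 and 0.55 at 1 and 4 h, neither by library totals, by 0.96 at 12 h (SE 0.11, adjusted p = 1.69e-10) and 1.18 at 24 h (SE 0.11, adjusted p = 4.42e-13). Unlike Ctsh, its highest mean came at 24 h.

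Ctss, for the protease that trims the invariant chain of MHC class II, rose by 0.44 at 1 h and 0.41 at 4 h, without a call in either direction at 12 and 24 h and, by library totals, with no call at 1 or 4 h. Ctse, for cathepsin E, an aspartic protease of immune cells, was scarce, at 5.90, 5.43 and 6.95 CPM in control, 16.8, 21.9 and 17.7 at 1 h, 17.7, 17.9 and 18.0 at 4 h, 4.04, 7.80 and 5.29 at 12 h and 2.93, 2.98 and 0.842 at 24 h. The 1 h and 4 h libraries lay above control, the 12 h ones overlapped it, and those at 24 h lay below it and near the floor. It rose by 1.57 at 1 h (edgeR, SE 0.28, adjusted p = 1.29e-05) and 1.49 at 4 h (SE 0.31, adjusted p = 4.72e-05) and fell by 1.46 at 24 h (SE 0.43, adjusted p = 0.00346). Without control replicate 3 the adjusted p at 24 h was 0.0186, and without 24 h replicate 3 it was 0.0527.

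Ctsd and Ctsb, the cathepsins with the most counts, fell. Ctsd (chr7:142375911-142388038, minus strand) was at 28917, 28429 and 30082 CPM in control, 18402, 19362 and 19518 at 1 h, 17517, 16715 and 14653 at 4 h, 10615, 10466 and 9943 at 12 h and 10596, 11217 and 11088 at 24 h. No stimulated library reached the control range. It fell by 0.64 at 1 h, by 0.89 at 4 h (edgeR, SE 0.08, adjusted p = 1.19e-13), by 1.54 at 12 h (SE 0.08, adjusted p = 7.88e-22) and by 1.41 at 24 h, and its share of all cathepsin counts went from 48.8 ± 0.528% in control to 26.8 ± 1.71% at 12 h. Ctsb was at 19414, 19033 and 19431 CPM in control and 10546, 9815 and 10645 at 24 h, and fell by 0.53 at 12 h and 0.90 at 24 h, with no call at 1 and 4 h. Ctsl, for the endopeptidase cathepsin L, was at 784, 638 and 691 CPM in control, 452, 462 and 445 at 1 h and 291, 297 and 272 at 24 h. It fell by 0.67 at 1 h (SE 0.10, adjusted p = 5.52e-07), 0.60 at 4 h, 1.20 at 12 h and 1.30 at 24 h. Ctsk, for the collagen-cleaving cathepsin K of osteoclasts, was at 29.0, 32.0 and 35.3 CPM in control and 6.35, 9.44 and 6.31 at 24 h, without overlap. It fell by 1.14 at 1 h (SE 0.21, adjusted p = 1.69e-05), 1.25 at 4 h (SE 0.23, adjusted p = 9.57e-06), 1.5 at 12 h (SE 0.22, adjusted p = 1.23e-07) and 2.13 at 24 h (SE 0.23, adjusted p = 4.86e-11). The 4 fibroblast markers summed to 70.0 to 104 CPM in control and 62.7 to 83.6 CPM at 24 h, and their part in the result for Ctsk, which fibroblasts also express, was not tested. Ctsa, for the protective protein of lysosomal galactosidase and sialidase, fell by 0.41 and 0.46 at 12 and 24 h, and Ctso by 0.58 at 4 h only among the 4 times. Ctsf, at 7.52 to 9.63 CPM in control, was called at no time.

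**Figure D4:**
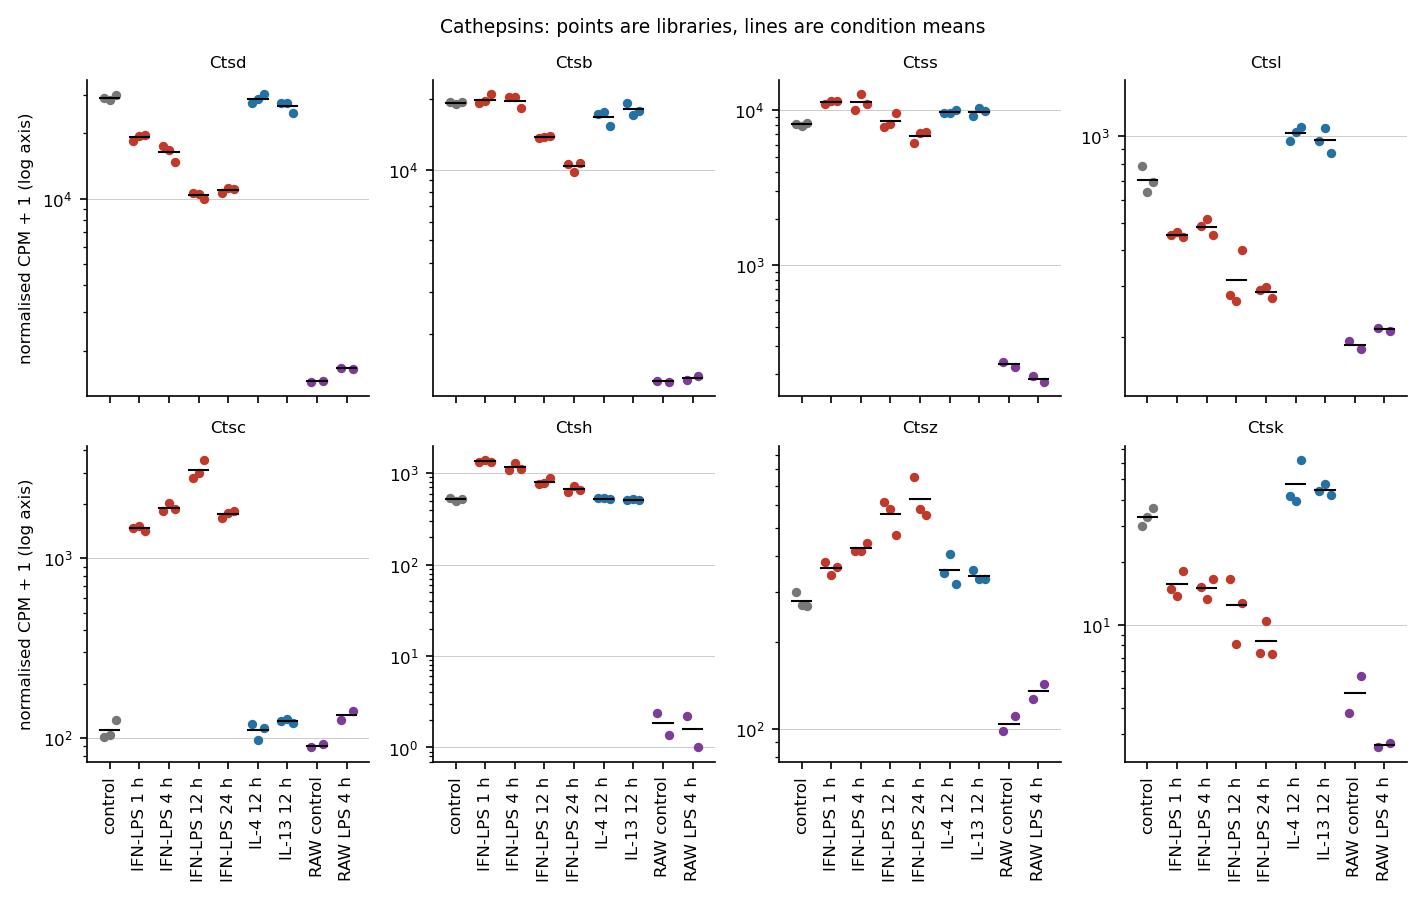
Normalised CPM plus 1 on a log axis of 8 cathepsin genes in the 9 conditions, with a point per library and a line at each group mean (grey control, red IFN-γ-primed LPS, blue IL-4 and IL-13, purple RAW264.7). Ctsc goes from 110.1 CPM in control to 3093 at 12 h of IFN-γ-primed LPS, Ctsd from 29143 to 10341, and Ctsh is at 517 CPM in control BMDMs and 0.875 in RAW264.7 control.

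The LAMP proteins line the inner face of the lysosomal membrane. Lamp2 was at 905, 967 and 917 CPM in control, 1390.2, 1433 and 1339.6 at 1 h, 1349.8, 1347 and 1603 at 12 h and 787, 935 and 888 at 24 h. It rose by 0.55 at 1 h, 0.45 at 4 h and 0.58 at 12 h, and at 24 h its libraries overlapped the control. Lamp1 was at 2599.8, 2832 and 2589.8 CPM in control and 2058, 2321 and 2380.4 at 24 h, where it fell by 0.25, and was not called at the other times. Of the 9 genes with CACGTG in the promoter, 4 fell at 12 h (Atp6v1a, Ctsa, Ctsd and Ctsl), 2 rose (Atp6v0b and Atp6v0e) and 3 were not called, beside 23.4% of all genes lower and 23.9% higher.

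Consecutive times were compared next, and these do not rest on the control. From 1 to 4 h, 3 of the 30 genes were higher and 4 lower, where 38.9% of all genes were called, 19.8% higher and 19.1% lower. Atp6v1e1 rose by 1.06 (edgeR, SE 0.09, adjusted p = 1.25e-13), Atp6v0b by 0.57 (SE 0.09, adjusted p = 4.8e-07) and Ctsc by 0.36 (SE 0.09, adjusted p = 0.000605). Atp6v0d2 fell by 0.93 (SE 0.12, adjusted p = 1.16e-08), Atp6v1c1 by 0.53 (SE 0.10, adjusted p = 1.11e-05), Atp6v0a1 by 0.33 (SE 0.10, adjusted p = 0.00675) and Ctsd by 0.25 (SE 0.08, adjusted p = 0.0073). The calls of Atp6v0a1 and Ctsd were lost with RLE scaling, with Rn45s kept and without each 1 h replicate or 4 h replicate 2 or 3, that of Atp6v0a1 also with DESeq2, and that of Ctsd with only the groups compared and without 12 h replicate 2 or 24 h replicate 3. By library totals, with the median of all genes at -0.37, the split was 1 higher and 20 lower, and the calls of Atp6v0b and Ctsc were lost. From 4 to 12 h, 7 were higher and 10 lower, against 35.9% (16.7% higher and 19.2% lower), and by library totals, with the median of all genes at 0.24, 12 and 6. Ctsc rose by 0.70 (SE 0.09, adjusted p = 3.1e-09), Atp6v1d by 0.66 (SE 0.13, adjusted p = 6.61e-05), Atp6v0a2 by 0.63 (SE 0.15, adjusted p = 0.00054) and Atp6v1h by 0.51 (SE 0.11, adjusted p = 8.75e-05). The a2 call was lost without 4 h replicate 3.

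In the same step from 4 to 12 h, Ctse fell by 1.64 (edgeR, SE 0.32, adjusted p = 3.18e-05), Atp6v0a1 by 1.45 (SE 0.12, adjusted p = 1.59e-14), Ctsd by 0.65 (SE 0.08, adjusted p = 3.09e-09), Ctsl by 0.60 (SE 0.11, adjusted p = 6.55e-06) and Atp6v0d2 by 0.47 (SE 0.14, adjusted p = 0.00417). Atp6v0a1 thus took its largest step here, and Atp6v0d2 its smallest. The Atp6v0d2 call was lost by library totals, with at least 10 counts in every sample, with only the groups compared, and without 4 h replicate 2, 12 h replicate 1 or 12 h replicate 3 (adjusted p = 0.0131 to 0.125). From 12 to 24 h, 7 genes were lower and 0 higher by edgeR, against 14.2% (5.31% higher and 8.9% lower), while 1 was higher at an unadjusted p under 0.05 and DESeq2 called 0 higher and 8 lower. Atp6v0d2 fell by 1.30 (SE 0.15, adjusted p = 2.74e-09), Ctsc by 0.77 (SE 0.09, adjusted p = 1.12e-09), Lamp2 by 0.68 (SE 0.09, adjusted p = 1.03e-07) and Atp6v1e1 by 0.45 (SE 0.09, adjusted p = 0.000181). Ctsc, Lamp2 and Atp6v1e1, higher at 12 h than in control, thus moved back in the direction of the control level, and Atp6v0d2 moved further from it. The share of Rn45s counts on the antisense strand was 0.0827% to 0.122% at 12 h and 0.0104% to 0.0162% at 24 h. Its part in this step was not tested. Atp6v0a1 was not called between 12 and 24 h, at a log2 difference of 0.03 (SE 0.13, adjusted p = 0.921).

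With IL-4 and IL-13 the largest rises were those of Atp6v0a1 and Atp6v0d2, which had the largest falls at 12 h of IFN-γ-primed LPS, and all 3 comparisons share the control libraries. With IL-4, 7 of the 30 genes rose, where 7.63% of 9252 genes were called, 4.38% higher and 3.25% lower. With IL-13, 8 rose, against 10.1%, 5.61% higher and 4.49% lower. In both comparisons edgeR called 0 of the 30 lower, 1 was lower at an unadjusted p under 0.05, and DESeq2 called 0 lower and 6 higher. Fitted on only the IL-4 and control libraries, edgeR called 10 higher and 1 lower, Ctsb, at a log2 difference of -0.21 (SE 0.06, adjusted p = 0.00595). Without control replicate 3 the IL-4 count was 4, and the IL-13 count was 5 without control replicate 1, control replicate 3, IL-4 replicate 1 or IL-13 replicate 2. The share of Rn45s counts on the antisense strand was 0.00603% to 0.0214% in the IL-4 and IL-13 libraries and 0.0386% to 0.0543% in the control libraries, and with IFN-γ-primed LPS 0.0456% to 0.122% over 1, 4 and 12 h and 0.0104% to 0.0162% at 24 h, and its part in the results was not tested. Past the cutoff of 0.7 on the log2 scale were 2 genes with each cytokine, Atp6v0d2 and Atp6v0a1, against 3.86% and 5.36% of all genes. Atp6v0d2 was at 1125, 1106 and 1237 CPM with IL-4 and 1211, 1343 and 1439 with IL-13, all above the control libraries at 611, 628 and 700.1 CPM. It rose by 0.83 with IL-4 (edgeR, SE 0.08, adjusted p = 8.06e-12) and 1.02 with IL-13 (SE 0.08, adjusted p = 2.95e-15).

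Atp6v0a1 was at 762, 695 and 732 CPM with IL-4 and 943, 881 and 850.4 with IL-13, above all control libraries, and rose by 0.81 (edgeR, SE 0.08, adjusted p = 1.56e-11) and 1.10 (SE 0.08, adjusted p = 2.8e-16). The other forms were not called, with log2 differences of -0.08 and -0.08 for Atp6v0d1 (adjusted p = 0.714 and 0.703), -0.04 and 0.07 for Atp6v0a2 (0.9 and 0.782) and -0.03 and -0.01 for Tcirg1 (0.884 and 0.963). Accordingly the d2 share per length was 86.2 ± 1.80% with IL-4 and 87.7 ± 1.90% with IL-13, and the a1 share 51.7 ± 1.52% and 56.1 ± 1.71%, so that a1 took the place of a3 as the most abundant a form. Atp6v1e1 was at 333, 306 and 307 CPM with IL-4 and 361, 348 and 331 with IL-13 and rose by 0.44 (SE 0.09, adjusted p = 0.00024) and 0.56 (SE 0.09, adjusted p = 1.42e-06), the 1 V1 gene of these that also rose with IFN-γ-primed LPS. Atp6v1b2 rose by 0.34 with IL-4 and 0.44 with IL-13, and Atp6v1a by 0.28 and Atp6v1g1 by 0.34 with IL-13. Summed, the V1 level was 3561 ± 133 and 3776 ± 211 CPM, and the V0 level 2662 ± 93.7 and 2974 ± 59.3 CPM. The V0 sums again leave out Tcirg1 and hold almost nothing of Atp6v0c.

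Among the cathepsins, Ctsl was at 960.1, 1034 and 1076 CPM with IL-4 and 960.5, 1063 and 875 with IL-13, above its control libraries, and rose by 0.53 (edgeR, SE 0.08, adjusted p = 2.59e-06) and 0.44 (SE 0.08, adjusted p = 5.96e-05). Ctss rose by 0.25 and 0.25, and Ctsz by 0.35 with IL-4. Ctsc, at 118, 96.8 and 113 CPM with IL-4 and at 124, 127 and 120.5 with IL-13, overlapped control in both. Neither LAMP gene was called. Ctsk, at 40.9, 38.4 and 60.8 CPM with IL-4 and 43.2, 46.6 and 41.0 with IL-13, lay above all control libraries without a call, at log2 differences of 0.52 (adjusted p = 0.0278) and 0.42 (0.0751).

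IL-13 and IL-4, at the same 10 ng/ml and 12 h, were compared directly. edgeR called 0 of the 30 genes, against 0.108% of all genes (0.0865% higher and 0.0216% lower), 2 had an unadjusted p under 0.05, and DESeq2 called 0. Those 2 were Atp6v0a1, whose IL-13 libraries all lay above the IL-4 libraries with a log2 difference of 0.28 (95% interval 0.13 to 0.43, adjusted p = 0.184), and Atp6v0d2, whose libraries overlapped, with a log2 difference of 0.20 (0.04 to 0.35, adjusted p = 0.545). Atp6v0d1 and Atp6v0a2 differed by 0.01 and 0.11 (adjusted p = 0.997 and 0.931). The largest difference in size was that of the scarce Ctse, -0.82 (-1.64 to -0.0073, adjusted p = 0.723), whose libraries overlapped and whose unadjusted p was 0.0533. These intervals were set from the SE alone and are slightly narrower than the test itself implies.

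The 12 h groups allow M1 and M2 stimulation to be set against each other without the shared control. The 12 h are those of LPS in the first and of IL-4 or IL-13 in the second. As the length of the IFN-γ priming is not given, the total time with the agents may differ. IFN-γ-primed LPS gave 8 genes higher and 10 lower than IL-4, where 42.8% of 9380 genes were called, 22.1% higher and 20.6% lower, and 8 higher and 10 lower than IL-13, against 42.3% (21.9% higher and 20.3% lower). The antisense share of Rn45s was 0.0827% to 0.122% in the 12 h IFN-γ-primed LPS libraries, above the range given for IL-4 and IL-13, and its part in these results was not tested. By library totals, with the median of all genes at -0.37 and -0.40, the splits were 6 and 17, and 6 and 18. Atp6v0d2 fell by 3.92 on the log2 scale against IL-4, a 15.1-fold difference (edgeR, SE 0.12, adjusted p = 6.14e-25), and fell by 4.12 against IL-13 (SE 0.12, adjusted p = 1.59e-25). In the same order, the log2 differences of Atp6v0a1 were -3.43 (SE 0.11, adjusted p = 2.3e-24) and -3.71 (SE 0.11, adjusted p = 2.12e-25). Those of Ctsk were -1.98 (SE 0.23, adjusted p = 2.85e-09) and -1.89 (SE 0.23, adjusted p = 8.96e-09), and those of Ctsl -1.69 (SE 0.12, adjusted p = 4.28e-14) and -1.60 (SE 0.12, adjusted p = 1.59e-13). Ctsc was higher by 4.83 than with IL-4 (SE 0.12, adjusted p = 5.83e-28) and by 4.65 than with IL-13 (SE 0.12, adjusted p = 1.04e-27). Also higher against IL-4 and IL-13 were Atp6v0a2, by 1.12 (5.58e-08 adjusted p) and 1.00 (3.47e-07), Atp6v1e1, by 1.00 (6.08e-11) and 0.87 (1.47e-09), and Atp6v0b, by 0.79 (1.8e-08) and 0.83 (6.72e-09). Atp6v0d1 was not called in either, with log2 differences of -0.22 and -0.23 (adjusted p = 0.137 and 0.115), but by library totals it was called lower in both, at -0.57 and -0.61. Past the cutoff of 1.5 in both comparisons were the 5 genes Ctsc, higher, and Atp6v0d2, Atp6v0a1, Ctsk and Ctsl, lower, against 16.3% and 16.2% of all genes.

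Other genes of the lysosome were counted in lists made for this purpose, to be read beside the 47.3% of all genes called at 12 h of IFN-γ-primed LPS, 23.9% higher and 23.4% lower. Of 36 other lysosomal hydrolases, 6 rose and 25 fell at 12 h of IFN-γ-primed LPS, with a median log2 fold change of -0.54 beside -0.03 for all genes (by library totals 3 and 28, -0.84 beside -0.34). The largest changes among them were those of Galc, for galactosylceramidase, from 208 to 32.2 CPM (log2 -2.73), Acp5, for the tartrate-resistant acid phosphatase, from 13.5 to 82.7 CPM (2.57), and Sgsh, for a sulfatase of heparan sulfate, from 122 to 23.2 CPM (-2.43). Among 21 other membrane proteins tested, 4 rose and 10 fell (by library totals 4 and 15), with the calcium channels Tpcn1 at -4.36 and Mcoln3 at -3.40 and the chloride exchanger Clcn7 at 2.45. Among 10 assembly factors of the V-ATPase and its regulators, 2 rose and 4 fell (2 and 7), with Snx10 at 2.18, Rogdi at -2.08 and Ncoa7 at 1.73. Of 5 cathepsin inhibitors tested, 2 rose and 2 fell (2 and 3). Cst7, for cystatin F, which inhibits cathepsin C among others, went from 0.181 CPM in control, under the floor, to 119.8 CPM, and the serpin Serpinb6a fell by 2.76. Of 14 genes that sort proteins to lysosomes, 2 rose and 6 fell (1 and 8), with the sorting receptor Sort1 at -4.18 and the mannose 6-phosphate receptor M6pr at 1.98. Of 11 Ragulator and folliculin genes tested, which signal from the lysosome's surface, 1 rose and 7 fell (0 and 8), and Rragd fell by 2.61.

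Of the 4 transcription factor genes Tfeb, Tfe3, Tfec and Mitf, 1 rose and 1 fell at 12 h of IFN-γ-primed LPS (1 and 2 by library totals), against the same 23.9% and 23.4%. At 12 h of IFN-γ-primed LPS, Tfeb fell by 0.84 and Mitf rose by 0.73. With IL-4, 2 of the 4 rose, Tfec by 1.32 and Mitf by 0.81, and with IL-13, 3 of the 4, Tfec 3.90-fold, Mitf by 0.91 and Tfeb by 0.56, with the same counts by library totals. All genes called were 7.63% with IL-4 (4.38% higher and 3.25% lower) and 10.1% with IL-13 (5.61% higher and 4.49% lower). Beside these, of the 36 hydrolases, 4 rose and 1 fell with IL-4 and 4 rose and 2 fell with IL-13 (7 and 2 by library totals), Acp5 by the most, 1.26 and 1.56. Serpinb6b, of the cathepsin inhibitors, rose by 1.60 and 1.61.

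RAW264.7 cells expressed most genes of the pump and the proteases at lower levels than BMDMs, some of them far lower, and with other forms. Of 31 genes tested between the controls, 27 were lower and 2 higher in RAW264.7, where 70.5% of 9879 genes were called, 34.5% higher and 36% lower (by library totals 25 and 3, with the median of all genes at 0.23). The median log2 difference of the 31 was -1.69, beside -0.04 over all genes, and 10 passed the cutoff of 2, against 22.4% of all genes. Cell type, medium and origin differ together and cannot be told apart. Atp6v0d2 gave 2 counts in the 2 RAW264.7 control libraries together and 3604 in the 3 BMDM control libraries, a ratio of 1823 (exact 95% interval 504 to 15059.5, counting error only). Ctsh gave 5 and 2883 counts, a ratio of 583 (249.7 to 1798). Some pump subunits differed much less. Atp6v1h was at 124 and 121 CPM in RAW264.7 control against 165, 156 and 150 in control BMDMs, and Atp6v0e at 119 and 125 against 198, 173 and 174. Of the abundant proteases, Ctss was at 238 and 220.4 CPM against 8173, 7969.6 and 8289, Ctsd at 1439.7 and 1447 against 28917, 28429 and 30082 and Ctsb at 1262 and 1248 against 19414, 19033 and 19431, log2 differences of -5.17, -4.36 and -3.97.

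**Figure D5:**
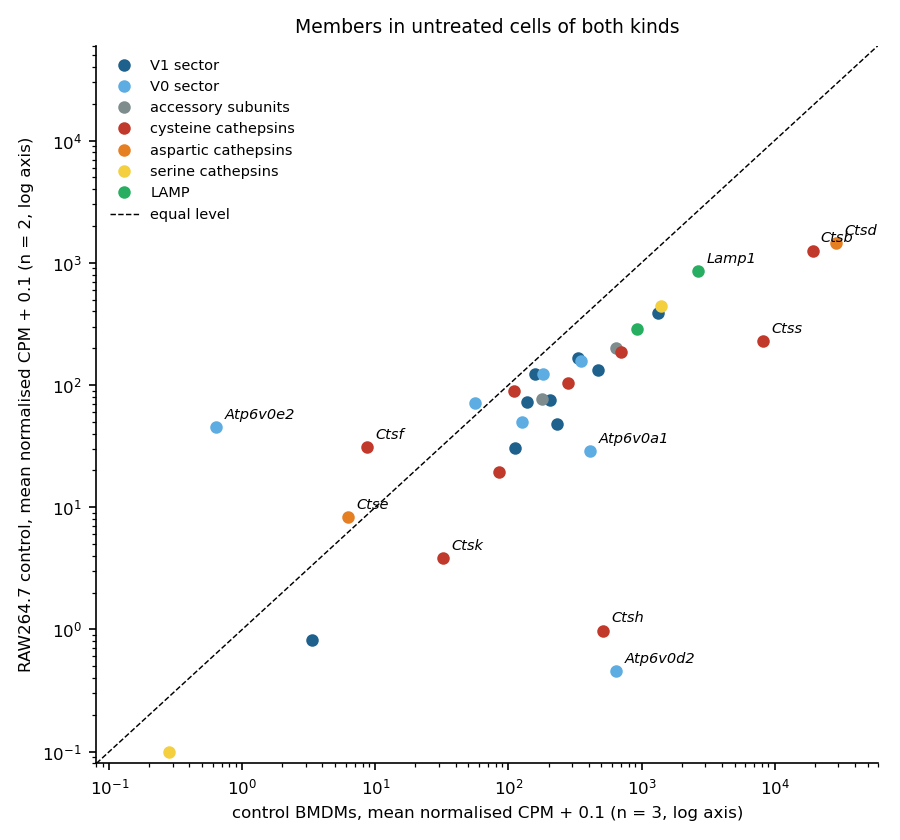
Mean normalised CPM plus 0.1 of each gene in control BMDMs (x axis) and RAW264.7 control (y axis), both on log axes, with a dashed line at equal levels. Most genes lie below the line, Atp6v0d2 and Ctsh farthest, and Ctsf and Atp6v0e2 lie above it.

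The forms of V0 differed with these levels. Atp6v0a1 was at 27.4 and 29.7 CPM in RAW264.7 control, a log2 difference of -3.87 from BMDMs, while Atp6v0a2, at 70.1 and 71.0 CPM, differed by 0.31 (edgeR, SE 0.13, adjusted p = 0.0215) without a call, although it was called higher by library totals (0.59), with at least 10 counts in every sample (0.37) and without BMDM control replicate 2 (0.41). Atp6v0d1 was at 43.7 and 54.7 CPM, a log2 difference of -1.40 (SE 0.12, adjusted p = 2.41e-30). Atp6v0e2, the second form of the e subunit, went the other way, with 254 counts in RAW264.7 control and 3 in control BMDMs, a ratio of 83.7 (28.3 to 409). It made up 36.5% of e and e2 per length in RAW264.7 control and at most 0.443% in the mean of any BMDM group. Ctsf, for cathepsin F, was at 32.3 and 29.7 CPM and higher by 1.82 (SE 0.23, adjusted p = 9.59e-15). Of the 36 other hydrolases, 32 were lower and 1 higher in RAW264.7 (by library totals 32 and 2), beside 36% of all genes lower and 34.5% higher.

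LPS alone was given to RAW264.7, with 2 libraries a group. Of 28 tested, 7 rose and 3 fell, where 27.9% of 9406 genes were called, 15.1% higher and 12.8% lower (by library totals 2 and 5, with the median of all genes at -0.18), and DESeq2 called 3 higher and 1 lower. Of the 28, 0 passed the cutoff of 2 on the log2 scale, against 3.22% of all genes. Atp6v0a1 was at 58.5 and 55.8 CPM after LPS against 27.4 and 29.7 in control, without overlap, and rose by 1.04 (edgeR, SE 0.16, adjusted p = 3.28e-10). Its direction was the opposite of that in BMDMs given IFN-γ-primed LPS, and the difference between the cell types was not tested, as the agents differed. Ctsc, at 125 and 141 CPM against 87.8 and 91.7, rose by 0.61 (SE 0.11, adjusted p = 8.44e-08), and Tcirg1 by 0.51 (SE 0.10, adjusted p = 1.35e-06). The calls of Atp6v0a1 and Ctsc held with all 4 scalings, as did the falls of Atp6v1a by 0.38 (SE 0.08, adjusted p = 6.34e-06), Ctss by 0.28 (SE 0.09, adjusted p = 0.00589) and Atp6v0e2 by 0.50 (SE 0.16, adjusted p = 0.00659). Ctsz rose by 0.42 (SE 0.10, adjusted p = 0.000263) and Atp6v1e1 by 0.43 (SE 0.14, adjusted p = 0.0069), neither by library totals. The number called was 6 without RAW264.7 control replicate 1 and 5 without either LPS replicate, and the calls of Ctsz, Ctss, Atp6v0e2 and Atp6v1e1 were each lost with DESeq2 and in at least 2 of the fits that left out a library. Atp6v0e2 after LPS was at 28.3 and 33.3 CPM, and Atp6v0d2 stayed at 0 to 0.796 CPM.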

How the data were processed

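The authors deposited raw whole-number counts per gene for each library, and per the submitters' processing notes reads passed through CASAVA 1.8.2, Trimmomatic 0.33 and STAR 2.5.1 on mm10, with DESeq2 (version not given in the sources used here) as their later test. STAR counts uniquely mapped reads alone. The column of counts on the gene's strand was used here, without Rn45s. Each library held 2378639 to 3357300 counts on 24411 symbols, of which Rn45s took 20.1% to 39.8%. Replicates differed by more than counting error (chi-square per degree of freedom 1.33 to 4.93 between libraries of a group), and duplicates were not marked with molecular identifiers. The labels' molecule field names polyA RNA, while the methods describe removal of ribosomal RNA.

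Genes past filterByExpr were fitted with robust edgeR 4.0.16 quasi-likelihood tests and TMM scaling in R 4.3.3, 2-sided, with Benjamini-Hochberg adjustment over all genes tested in a comparison. The fits took the 15 control and IFN-γ-primed LPS libraries, 9 libraries of control, IL-4 and IL-13, 9 libraries of the 12 h groups, the 4 RAW264.7 libraries, and the 5 controls. Levels are normalised CPM computed from the deposited counts with TMM factors over all 25 libraries, tabulated in Python 3.11.15 with pandas 2.3.3 and plotted with matplotlib 3.10.9. The scripts were tested on simulated data. Fold cutoffs on the log2 scale were 0.7 for the IL-4 and IL-13 groups against control, 2 where RAW264.7 entered, and 1.5 elsewhere. Full statistics go to up to 4 members with the highest and 4 with the lowest fold change among called members whose groups do not overlap, and to the paired a and d forms. The rule for members uses symbols alone, but it and the lists were chosen with earlier results of these data known. Alternatives were RLE scaling, Rn45s kept, DESeq2 1.42.0, other count filters, only the groups compared, a replicate block, each library left out and, added after seeing the data, library totals. Intervals for low counts are exact and cover counting error only.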

Additional observations from a re-analysis of the deposited data

How the results depend on the processing

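Of the 14 counts of genes called, those not named here stayed within 1.5 times the reported count under the alternatives run. By library totals the count from 1 to 4 h was 21. Fitted on only the groups compared, it was 11 for IL-4 and 5 for IL-13, and with DESeq2 it was 4 for RAW264.7 LPS. Leaving out 1 library at a time gave 4 to 8 for IL-4, 5 to 9 for IL-13 and 5 to 7 for RAW264.7 LPS. The cause of these moves was not tested. Among named log2 fold changes, none of the reversed ones was called. From 12 to 24 h, Atp6v0a1 was -0.0137 with RLE, -0.0168 with Rn45s kept, -0.0138 with DESeq2 and -0.0350 to 0.10 without 1 library, and Atp6v0d1 was -0.0200 with RLE, -0.0230 with Rn45s kept, -0.0202 with DESeq2 and -0.0505 to 0.0602 without 1 library. By library totals, Atp6v0a2 was -0.11 at 4 h of IFN-γ-primed LPS and -0.11 in RAW264.7 LPS, and Atp6v0e -0.18 in RAW264.7 LPS. Atp6v0e there was -0.0139 with at least 10 counts in every sample and -0.0502 to 0.0638 without 1 library. Without 1 library, Atp6v0a2 against control was -0.16 to 0.0626 for IL-4 cells. For IL-13 cells it was -0.0478 to 0.18, and Atp6v0d1 was -0.0711 to 0.0615 between IL-13 and IL-4. Shares per longest transcript put a1 at 38.6% in control.

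Samples with the same replicate number deviated together little, with a mean correlation of 0.0213 (-0.0703 to 0.176) in the fit of control and IFN-γ-primed LPS. For other numbers the mean was -0.0107. A low mean cannot settle whether the numbers pair the samples. With a replicate block the counts were 18, 20, 22 and 20 at 1, 4, 12 and 24 h, 6 for IL-4, 7 for IL-13 and 10 for RAW264.7 LPS. At this depth a level under 3 counts cannot be told from 0.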
